A study of Mus musculus with 16 samples.

Results

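The 9 genes followed here encode tricarboxylic acid (TCA) cycle enzymes and isocitrate dehydrogenases, and were measured in cultured mouse astrocytes. The genes are Cs, the isocitrate dehydrogenase genes Idh1, Idh2, Idh3a, Idh3b and Idh3g, and Ogdh, Fh1 and Mdh2. They were picked by symbol, and 9 of 9 were found among the 16707 genes of the deposited expression tables. Primary astrocytes came from the brains of P6 pups, selected with beads against the astrocyte surface antigen ACSA-2 and grown in serum-free medium. WT cultures were C57BL6J, and Nlrx1-/- cultures (KO in the sample titles) carry a deletion of Nlrx1, a mitochondrial NOD-like receptor, on the C57BL/6J background, the removed part of the gene not being named. From each of 4 litters per genotype, 1 well received vehicle (H2O) and another received 500 ng/mL of lipopolysaccharide (LPS), a bacterial outer membrane component, with 10 ng/mL of the cytokine IFNγ. RNA was taken after 24 h, which gave 16 libraries in 4 groups of 4. The 2 wells of a litter are paired, whereas the genotypes were compared across litters.

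The TCA cycle runs in the mitochondrial matrix and oxidizes acetyl groups to carbon dioxide, passing electrons to the respiratory chain. Citrate synthase (Cs) opens it by joining acetyl-CoA to oxaloacetate. Isocitrate is then oxidized to 2-oxoglutarate by the NAD-dependent IDH3, an enzyme built from the catalytic subunit Idh3a with Idh3b and Idh3g, or by the NADP-dependent Idh2, and Idh1 carries out the NADP-dependent reaction in the cytosol and peroxisomes. Ogdh, the first component of the 2-oxoglutarate dehydrogenase complex, makes succinyl-CoA. Fumarase (Fh1) and mitochondrial malate dehydrogenase (Mdh2) close the circle back to oxaloacetate. In astrocytes the cycle also supplies carbon for glutamine and citrate.

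On GRCm39 (GENCODE M39), Cs lies on chromosome 10 from 128172837 to 128198363, Ogdh on chromosome 11 from 6241551 to 6309233 and Mdh2 on chromosome 5 from 135807292 to 135820882, each on the plus strand, as is Idh3a on chromosome 9 from 54493575 to 54514730. On the minus strand lie Idh1 (chromosome 1, 65196781 to 65225721), Fh1 (chromosome 1, 175425290 to 175453205), Idh2 (chromosome 7, 79741431 to 79765535), Idh3b (chromosome 2, 130121227 to 130126467) and Idh3g (chromosome X, 72820644 to 72830719). All 9 are protein-coding.

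RefSeq promoter windows on GRCm38.p6 were read for 8 of 9 genes, Idh3a having no entry. The 4 windows shown each hold the 250 bases before the transcription start, 5′ to 3′ along the gene, for the genes with 1 annotated start that rose after LPS+IFNγ in both genotypes (Cs, Fh1 and Mdh2) or were lower in both (Idh3g). They lie at chr10:128337477-128337726 (plus strand), chr1:175625636-175625885 (minus strand), chr5:135778399-135778648 (plus strand) and chrX:73786898-73787147 (minus strand). Capitals mark 3 motifs searched on either strand: the CCAAT box, the GC box written GGGCGG, and TCGCGAGA, with overlapping matches joined.

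Cs: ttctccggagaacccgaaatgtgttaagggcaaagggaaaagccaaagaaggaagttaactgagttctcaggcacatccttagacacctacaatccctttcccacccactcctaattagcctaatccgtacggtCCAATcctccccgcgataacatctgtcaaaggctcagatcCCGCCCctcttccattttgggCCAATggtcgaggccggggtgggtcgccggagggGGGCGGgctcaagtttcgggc
Fh1: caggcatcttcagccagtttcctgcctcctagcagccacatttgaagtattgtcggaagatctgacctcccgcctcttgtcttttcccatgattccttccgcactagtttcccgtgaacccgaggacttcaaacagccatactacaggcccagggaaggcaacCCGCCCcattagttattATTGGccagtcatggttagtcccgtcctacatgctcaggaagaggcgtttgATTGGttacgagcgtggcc
Mdh2: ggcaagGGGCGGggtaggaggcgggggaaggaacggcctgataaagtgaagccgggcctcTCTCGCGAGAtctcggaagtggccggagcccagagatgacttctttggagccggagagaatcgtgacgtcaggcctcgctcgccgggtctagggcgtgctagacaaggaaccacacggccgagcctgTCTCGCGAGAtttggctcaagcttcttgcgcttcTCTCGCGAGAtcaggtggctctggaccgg
Idh3g: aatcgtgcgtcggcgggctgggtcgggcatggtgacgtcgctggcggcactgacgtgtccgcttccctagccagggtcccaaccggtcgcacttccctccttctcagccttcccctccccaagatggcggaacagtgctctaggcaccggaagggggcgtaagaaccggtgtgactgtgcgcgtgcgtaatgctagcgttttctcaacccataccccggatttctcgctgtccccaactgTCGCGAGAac

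TCGCGAGA occurred 3 times in the Mdh2 window, each time within a longer palindrome, and once in the Idh3g window, next to the start and without that palindrome. Of all 32851 RefSeq windows of this length, 0.86% held TCGCGAGA, a motif chosen after reading these sequences. The 8 genes have 14 windows, 6 of them of Ogdh and 2 of Idh1, so these genes have several chances to match. CCAAT, present in 33.85% of all windows, was found in 9 of the 14 (6 of the 8 genes), and GGGCGG, present in 32.74%, in 8 of the 14 (also 6 of the 8 genes). GCGCATGC, a core of the NRF1 site, was in 2 of the 14 windows, both of Ogdh, and in 2.26% of all. A match gives letters in a window and not a bound site, and no match says only that these letters are not in this window.

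Between 27259420 and 43752903 reads per library were assigned to transcripts, with a median of 35554625, and each of the 9 genes rested on at least 2306 reads in every library. Nlrx1, the deleted gene, was at 4.08 to 4.44 log2 CPM in the WT libraries and at 1.09 to 2.96 in the Nlrx1-/- libraries, with no overlap. The 9 astrocyte markers summed to 3865 to 6349 TPM in WT vehicle and 3051 to 4508 after LPS+IFNγ, and to 2658 to 4600 and 2465 to 3488 TPM in Nlrx1-/- cultures, and the 9 microglia markers to at most 3.11 TPM, with Aif1 at 0 in all libraries of 3 of the 4 groups. Markers of the oligodendrocyte lineage (8 genes) summed to 655 to 953 TPM in WT vehicle and 354 to 646 after LPS+IFNγ, and to 273 to 795 and 177 to 411 in Nlrx1-/- cultures. In the same order of groups, 7 neuron markers summed to 22.2 to 25.8, 66.4 to 105, 18.8 to 27.2 and 67.8 to 95.2 TPM, 4 ependymal markers to 141 to 198, 85.9 to 119, 77.5 to 147 and 46.1 to 81.5 TPM, and 5 cell cycle genes to 456 to 713, 471 to 537, 552 to 715 and 298 to 546 TPM. The 5 endothelial and mural markers summed to at most 2.61 TPM and the 4 fibroblast and meninges markers to at most 23.3 TPM. Several of these sums moved with treatment or genotype, and their part in the differences below was not tested. In bulk RNA, fewer cells of a type and less RNA per cell cannot be told apart.

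Levels between genes were compared in TPM, which divides by transcript length. Mdh2 and Cs were the most abundant, at 481 ± 29.8 and 464 ± 98.9 TPM (mean ± SD over 16 libraries), and their order went with treatment: Mdh2 was above Cs in all 8 vehicle libraries and below it in all 8 LPS+IFNγ libraries. Next came a group of 4, Idh1 at 245 ± 18.0, Idh2 at 230 ± 38.5, Idh3g at 223 ± 36.2 and Idh3b at 199 ± 10.3 TPM. Within that group the order was not fixed, since Idh1 exceeded Idh2 in 13 libraries, Idh2 exceeded Idh3g in 10 and Idh3g exceeded Idh3b in 12. Fh1 (133 ± 11.5 TPM) was below Idh3b in 16 of 16 libraries and above Idh3a (107 ± 20.9) in 14, and Ogdh was lowest at 84.0 ± 15.6, below Idh3a in 15. Thus the catalytic subunit of IDH3 was the least abundant of its 3 subunits in every library. For Cs, Idh2, Idh3a, Fh1 and Mdh2 a single RefSeq transcript carried at least 99.8% of the TPM on average. Ogdh was carried mostly by a transcript of 4218 bases (74.9% of its TPM) with 12.4% from one of 6630 bases, and Idh3g by transcripts of 1335 bases (79.9%) and 1340 bases (19.1%).

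**Figure D1:**
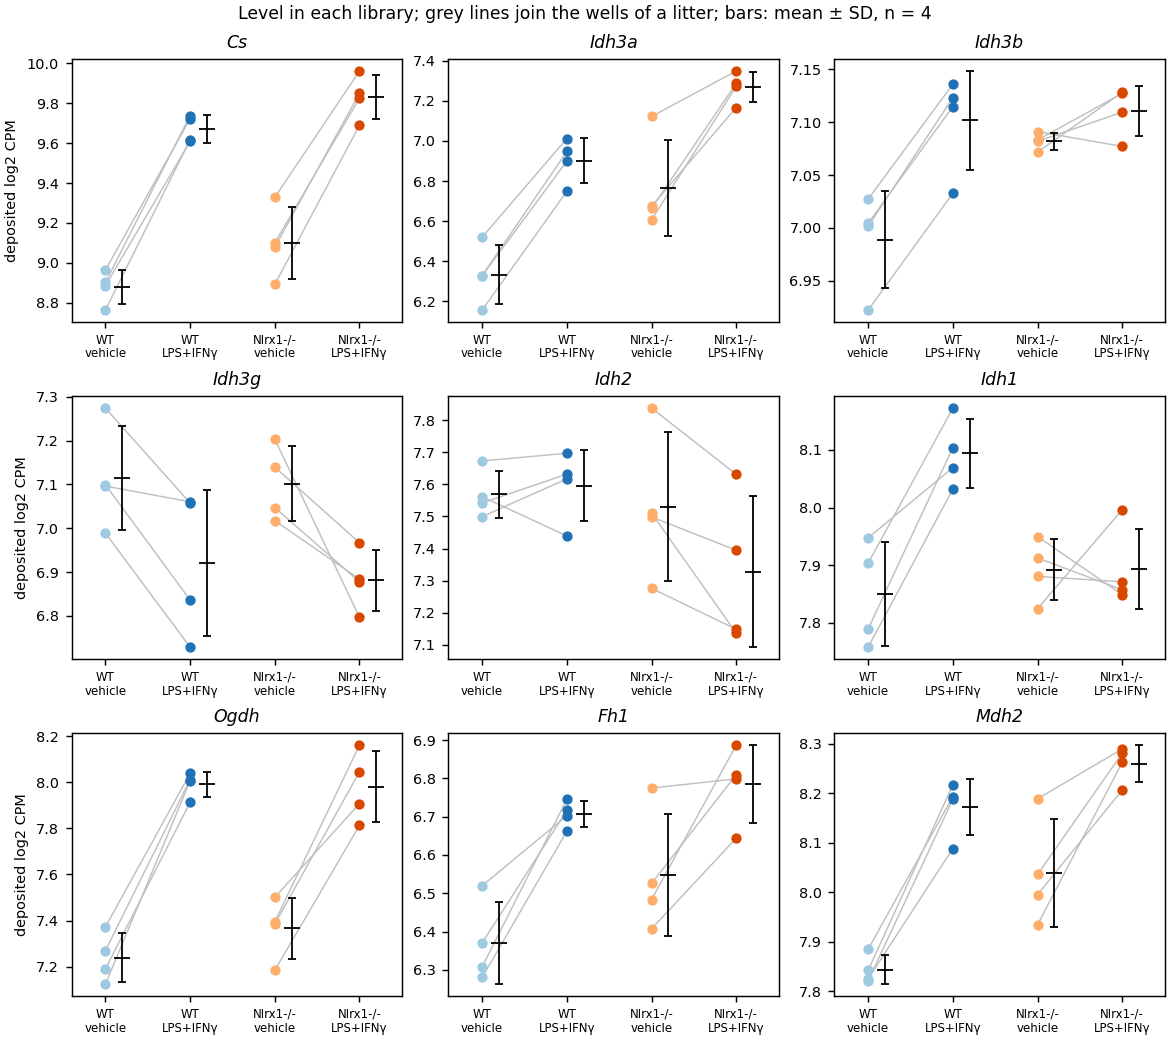
Deposited log2 CPM (y axis, its own range in each panel) of the 9 genes in the 4 groups; points are libraries, grey lines join the vehicle and LPS+IFNγ wells of a litter, and black bars give the mean ± SD of 4 litters. Cs, Idh3a, Ogdh and Mdh2 show no overlap between vehicle and LPS+IFNγ in either genotype, as do 13.9% of all 16707 genes in that direction, and Idh3g lies lower after LPS+IFNγ in all 8 litters.

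The first question was how LPS+IFNγ changed these genes in each genotype. Cs, Idh3a, Ogdh, Fh1 and Mdh2 rose in both genotypes, and Idh3g fell in both. Cs and Ogdh rose most, 1.72-fold and 1.66-fold in WT, whereas Idh3g fell by 0.20 and 0.24 on the log2 scale in WT and Nlrx1-/- astrocytes. Idh1 was called higher in WT alone and Idh2 lower in Nlrx1-/- alone, and Idh3b was called in neither. By edgeR's quasi-likelihood test at an adjusted p below 0.05, 6 of 9 genes were higher in WT against a background of 23.7% of the 16066 genes tested, and 1 of 9 was lower against 20.2%. In Nlrx1-/- astrocytes 5 of 9 were higher against 25.3%, and 2 of 9 lower against 24.2%. The median log2 difference of the 9 genes was 0.32 in WT and 0.21 in Nlrx1-/-, where that of all genes tested was -0.02 and -0.03.

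Cs, the entry enzyme, was at 8.96, 8.90, 8.76 and 8.89 log2 CPM in the WT vehicle libraries of litters 1 to 4 and at 9.72, 9.74, 9.62 and 9.61 after LPS+IFNγ. In Nlrx1-/- it was at 9.10, 9.33, 8.89 and 9.08 in vehicle and at 9.82, 9.96, 9.69 and 9.85 after LPS+IFNγ. Every treated library lay above every vehicle library, also across genotypes. The edgeR log2 difference was 0.78 in WT (standard error 0.04, adjusted p = 3.16e-07) and 0.72 in Nlrx1-/- (standard error 0.04, adjusted p = 5.61e-07). Per litter the rise spanned 0.72 to 0.85 in WT and 0.63 to 0.80 in Nlrx1-/-.

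The 3 subunits of IDH3 moved apart. Idh3a, the catalytic subunit, was at 6.52, 6.33, 6.33 and 6.16 log2 CPM in WT vehicle and at 7.01, 6.90, 6.95 and 6.75 in WT LPS+IFNγ. In Nlrx1-/- it was at 6.66, 7.12, 6.67 and 6.61 in vehicle and 7.29, 7.35, 7.17 and 7.27 after LPS+IFNγ. All 8 litters rose, and within each genotype the treated libraries lay above the vehicle libraries. The edgeR log2 difference was 0.56 in WT (standard error 0.07, adjusted p = 8.15e-05) and 0.49 in Nlrx1-/- (standard error 0.07, adjusted p = 0.000165). The smallest rise, 0.23, came from Nlrx1-/- litter 2, whose vehicle well was the highest of its group. Idh3b, a regulatory subunit, was at 6.92 to 7.03 log2 CPM in WT vehicle and 7.03 to 7.14 after LPS+IFNγ, and at 7.07 to 7.09 and 7.08 to 7.13 in Nlrx1-/-. Its 4 WT litters changed by 0.11, 0.11, 0.12 and 0.11, and those of Nlrx1-/- by -0.01, 0.04, 0.03 and 0.06. Small as it was, the WT change had nearly the same size in every litter, with a log2 difference of 0.10 (edgeR, standard error 0.04, adjusted p = 0.0640). Scaled by library size only, without the composition factor, it was -0.06, so its direction depends on the scaling. Idh3g, the other regulatory subunit, was at 6.99, 7.10, 7.10 and 7.27 log2 CPM in WT vehicle and 6.73, 7.06, 6.84 and 7.06 after LPS+IFNγ. In Nlrx1-/- it went from 7.02, 7.05, 7.14 and 7.20 to 6.88, 6.88, 6.97 and 6.80. Every litter fell, and the groups overlapped in WT but not in Nlrx1-/-. The share of all genes separated in that direction in Nlrx1-/- was not computed. The edgeR adjusted p was 0.0180 in WT and 0.00771 in Nlrx1-/-. In WT the call was lost without litter 1, 3 or 4, at log2 differences of -0.18, -0.18 and -0.20 (edgeR adjusted p = 0.0810, 0.0817 and 0.0638).

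Within a library the subunits can be set against each other without any scaling between libraries. Idh3a made up 15.1 ± 2.07% of the summed TPM of Idh3a, Idh3b and Idh3g in WT vehicle (mean ± SD, n = 4) and 21.4 ± 2.40% after LPS+IFNγ. In Nlrx1-/- the share was 18.99 ± 2.94% in vehicle and 26.1 ± 1.29% after LPS+IFNγ. It rose in all 8 litters, from 12.7 to 17.7% up to 18.7 to 24.3% in WT, and from 16.7 to 23.3% up to 24.2 to 27.1% in Nlrx1-/-. Idh3a reached 0.40 of the Idh3b level in WT vehicle and 0.70 in Nlrx1-/- LPS+IFNγ, as group means of the TPM ratio. This ratio was examined after the values were seen and is given without a test.

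**Figure D2:**
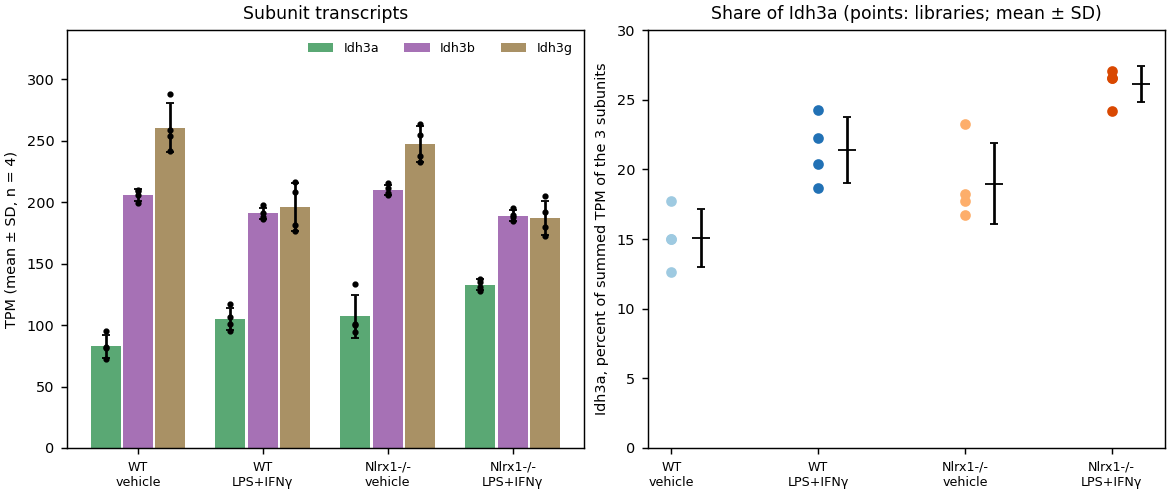
Left, TPM of the 3 IDH3 subunit transcripts in the 4 groups (bars mean ± SD of 4 litters, points libraries); right, Idh3a as a percent of the summed TPM of the 3 subunits in each library, with mean ± SD. The share of Idh3a is 15.1% in WT vehicle and 26.1% in Nlrx1-/- LPS+IFNγ.

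The NADP-dependent enzymes showed small changes. Idh2, the mitochondrial form, was at 7.54, 7.50, 7.67 and 7.56 log2 CPM in WT vehicle and 7.63, 7.62, 7.70 and 7.44 after LPS+IFNγ. In Nlrx1-/- it went from 7.50, 7.51, 7.84 and 7.28 to 7.39, 7.14, 7.63 and 7.15. All 4 Nlrx1-/- litters fell, by 0.10 to 0.37, and the vehicle and treated ranges overlapped. The log2 difference was -0.22 in Nlrx1-/- (edgeR, standard error 0.06, adjusted p = 0.00780) and 0.02 in WT (standard error 0.06, adjusted p = 0.840). Without litter terms the Nlrx1-/- call was lost (adjusted p = 0.160). Idh1, the cytosolic form, was at 7.76, 7.90, 7.79 and 7.95 log2 CPM in WT vehicle and 8.03, 8.17, 8.10 and 8.07 after LPS+IFNγ, a rise in 4 of 4 litters. In Nlrx1-/- it was at 7.88, 7.95, 7.82 and 7.91 in vehicle and 7.87, 7.85, 8.0 and 7.86 after LPS+IFNγ, and 1 of 4 litters rose. The WT log2 difference was 0.23 (edgeR, standard error 0.06, adjusted p = 0.00626). It fell to 0.07 when libraries were scaled by size only (edgeR adjusted p = 0.331). The WT call was also lost with upper quartile scaling (0.14, edgeR adjusted p = 0.0825). With a trend on gene length or GC content removed it was lost too, at 0.096 and 0.14 (edgeR adjusted p = 0.238 and 0.0925). The Nlrx1-/- difference was -0.01 (standard error 0.06, edgeR adjusted p = 0.864), or -0.18 by size only (edgeR adjusted p = 0.0263).

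Ogdh, Fh1 and Mdh2, which act after 2-oxoglutarate, all rose. Ogdh was at 7.37, 7.12, 7.19 and 7.27 log2 CPM in WT vehicle and 8.04, 8.01, 7.91 and 8.01 after LPS+IFNγ. In Nlrx1-/- it was at 7.39, 7.50, 7.38 and 7.19, and then at 8.16, 7.91, 8.04 and 7.81. The treated libraries lay above all vehicle libraries, with log2 differences of 0.73 in WT (edgeR, standard error 0.06, adjusted p = 5.23e-06) and 0.55 in Nlrx1-/- (standard error 0.06, adjusted p = 3.34e-05). Mdh2 rose by 0.26 to 0.38 log2 CPM per litter in WT and by 0.10 to 0.33 in Nlrx1-/-. Its log2 differences were 0.32 and 0.21 (edgeR adjusted p = 0.000284 and 0.00367). Fh1 rose by 0.18 to 0.44 log2 CPM in WT litters and 0.02 to 0.40 in Nlrx1-/- litters, with log2 differences of 0.33 and 0.22 (edgeR adjusted p = 0.00287 and 0.0193). The Nlrx1-/- call of Fh1 was lost without litter 1 (0.21, adjusted p = 0.0652) or litter 3 (0.16, adjusted p = 0.0917).

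**Figure D3:**
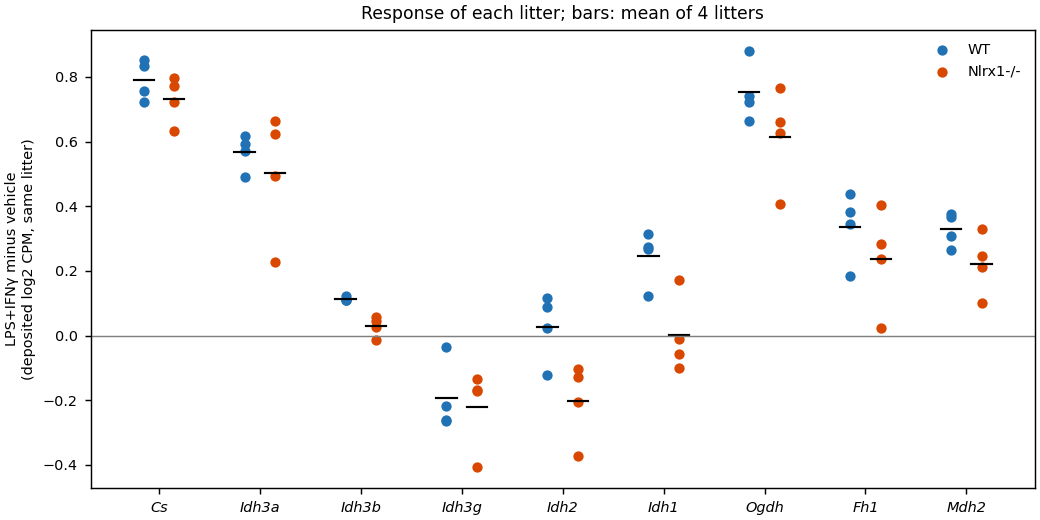
Response of each litter (y axis, LPS+IFNγ well minus vehicle well, deposited log2 CPM) for the 9 genes; blue points are WT litters, orange points Nlrx1-/- litters and black bars the mean of 4. The litters of the genotypes are apart for Idh3b alone, and Nlrx1-/- litter 2 gives the lowest Nlrx1-/- response for all but Idh3b and Idh3g.

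The size of the rise depends on how libraries are scaled. TMM, a composition factor, was used by the authors and here. Computed on summed counts without length correction, it was 1.03 to 1.08 in vehicle and 0.910 to 0.961 in LPS+IFNγ libraries. The factors of the fit and of the authors came from counts corrected for length and are not given here. Scaled by library size only, the median of all genes moved to -0.18 in WT and -0.19 in Nlrx1-/-, and with upper quartile scaling to -0.12 and -0.13. Cs, Idh3a and Ogdh were called higher in both genotypes under all 21 alternative settings, at log2 differences no lower than 0.62, 0.40 and 0.57 in WT and 0.55, 0.32 and 0.39 in Nlrx1-/-. Mdh2 was called in 20 of 21 settings in WT and 18 of 21 in Nlrx1-/-, Fh1 in 19 and 15, and Idh3g was called lower in 17 and 21. Idh1 was called higher in WT in 17 of 21. TPM, which has no composition factor, therefore gives lower responses than log2 CPM: Idh1 in Nlrx1-/- went from 250 ± 6.65 to 221 ± 17.1 TPM, while its log2 CPM stayed at 7.89.

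The next question was whether the response differed between genotypes. The interaction, the response in Nlrx1-/- minus that in WT, was below 0 for 9 of 9 genes, with a median of -0.10. Over all genes tested the median was -0.02, and 47% were above 0. The 3 lists of related enzymes described below shared this shift. Their medians were -0.14 (other cycle enzymes), -0.11 (pyruvate entry) and -0.20 (cytosolic partners and side branches). In these lists 2 of 10, 3 of 13 and 4 of 14 genes were above 0. All these genes were read in the same litters, so their signs are not independent. The Idh3a interaction was 0.021 without Nlrx1-/- litter 2. That of Idh3g was 0.019 without WT litter 2 and 0.034 without Nlrx1-/- litter 4. It was also above 0 with a trend on gene length or GC content removed. None of the 9 was called by edgeR, and neither was any other gene: percent called was 0 in each direction, while DESeq2 called 108 genes higher and 212 lower and 0 of the 9. The count over all genes rested on 1 litter, since without Nlrx1-/- litter 3 the same edgeR fit called 125 genes higher and 192 lower, again 0 of the 9. At an unadjusted p below 0.05, 2 of 9 genes were lower, against 9.47% of all genes, and 0 of 9 higher, against 5.89%. These were Idh1, at -0.25 (standard error 0.08, edgeR adjusted p = 0.226), and Idh2, at -0.23 (standard error 0.08, edgeR adjusted p = 0.231). For Idh1, which the study had displayed among respiratory genes selected on these samples, 3 of 4 Nlrx1-/- litters lay below all WT litters. The same count held for Idh2, Ogdh and Mdh2, and its share over all genes was not computed. The exact two-sided permutation test over the 8 litter responses, run for 9 genes, gave p = 0.0571 for Idh1 and for Idh2. For Idh3b, all 4 Nlrx1-/- litters lay below all WT litters (exact permutation p = 0.0286, the smallest that 4 against 4 allow), as in 5.25% of all genes, and its interaction was -0.09 (edgeR, standard error 0.06, adjusted p = 0.490). The exact permutation p was 0.114 for Mdh2, 0.200 for Ogdh and between 0.286 and 0.743 for Cs, Fh1, Idh3g and Idh3a. The mean responses in WT and Nlrx1-/- were 0.79 and 0.73 log2 CPM for Cs, and 0.57 and 0.50 for Idh3a.

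The genotypes were then compared at each treatment, with the same Nlrx1-/- and WT libraries that entered the responses. Idh3a was the one gene of the 9 whose litters did not overlap between genotypes at either treatment, Nlrx1-/- being higher in both, as in 1.66% of all genes. In vehicle its highest WT library, at 6.52 log2 CPM, was below the lowest Nlrx1-/- library, at 6.61, and after LPS+IFNγ the limits were 7.01 and 7.17. Nlrx1-/- cultures exceeded WT by 0.43 on the log2 scale without treatment (edgeR adjusted p = 0.111, standard error 0.11) and by 0.35 with it (edgeR adjusted p = 0.0575, standard error 0.11), neither of which passed the threshold. Without Nlrx1-/- litter 3 it passed in both, at 0.47 (edgeR adjusted p = 0.0289) and 0.38 (edgeR adjusted p = 0.0333), and over the alternatives the adjusted p ranged from 0.0129 to 0.358 in vehicle and from 0.0217 to 0.159 in LPS+IFNγ. The vehicle difference rested partly on Nlrx1-/- litter 2 at 7.12 log2 CPM, the other 3 being at 6.61 to 6.67.

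In vehicle 0 of the 9 genes were called in either direction by edgeR, as was the case for all genes (percent called 0), while 11% of all genes were higher and 8.57% lower at an unadjusted p below 0.05, and DESeq2 called 489 genes higher and 278 lower. Without Nlrx1-/- litter 3 edgeR called 590 genes higher and 720 lower, and without WT litter 1 it called 117 and 36. Of the 9, Idh3a, Cs and Mdh2 were higher at that unadjusted threshold and 0 were lower. Idh3a, Idh3b and Mdh2 did not overlap, the Nlrx1-/- libraries being higher, as in 6.02% of all genes. Mdh2 was at 7.82 to 7.88 log2 CPM in WT and 7.93 to 8.19 in Nlrx1-/-, with a log2 difference of 0.19 (edgeR, standard error 0.06, adjusted p = 0.130). Cs was at 0.22 (edgeR, standard error 0.08, adjusted p = 0.188) and overlapped. Idh3b was at 7.07 to 7.09 log2 CPM in Nlrx1-/- and 6.92 to 7.03 in WT, but its difference was 0.08 (edgeR adjusted p = 0.328). DESeq2 called 2 of the 9 higher in vehicle, Idh3a and Mdh2 (adjusted p = 0.0129 and 0.0304).

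In LPS+IFNγ 0 of the 9 genes were called higher, against 2.65% of all genes, and 0 lower, against 2.38%. At an unadjusted p below 0.05, 1 of 9 was higher (Idh3a) against 13.5%, and 2 of 9 lower (Idh1 and Idh2) against 14.9%. Idh1 lay closest to the threshold, with the 4 Nlrx1-/- libraries at 7.85 to 8.0 log2 CPM below the 4 WT libraries at 8.03 to 8.17, a separation in that direction seen in 6.23% of all genes (7.09% in the other, which holds Idh3a). Its log2 difference was -0.21 (edgeR, standard error 0.06, adjusted p = 0.0506), a level 0.86 times that of WT. It was called lower in 8 of 22 alternative settings, with adjusted p between 0.00880 and 0.162. Idh2 was at 7.14 to 7.63 log2 CPM in Nlrx1-/- and 7.44 to 7.70 in WT, which overlap, and its difference of -0.27 (edgeR, standard error 0.12, adjusted p = 0.148) became -0.39 without Nlrx1-/- litter 3 (edgeR adjusted p = 0.00919), the litter with the highest Idh2 in both treatments. The 6 other genes apart from Idh3a lay between -0.06 and 0.15 on the log2 scale (edgeR adjusted p from 0.264 to 0.953). Nlrx1 itself was at -1.70 in vehicle (edgeR adjusted p = 0.0538) and -2.19 in LPS+IFNγ (edgeR adjusted p = 0.00318), so in vehicle even the deleted gene did not pass in this fit, though it passed in 9 of 22 alternative settings, DESeq2 among them (adjusted p from 2.46e-08 to 0.326).

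**Figure D4:**
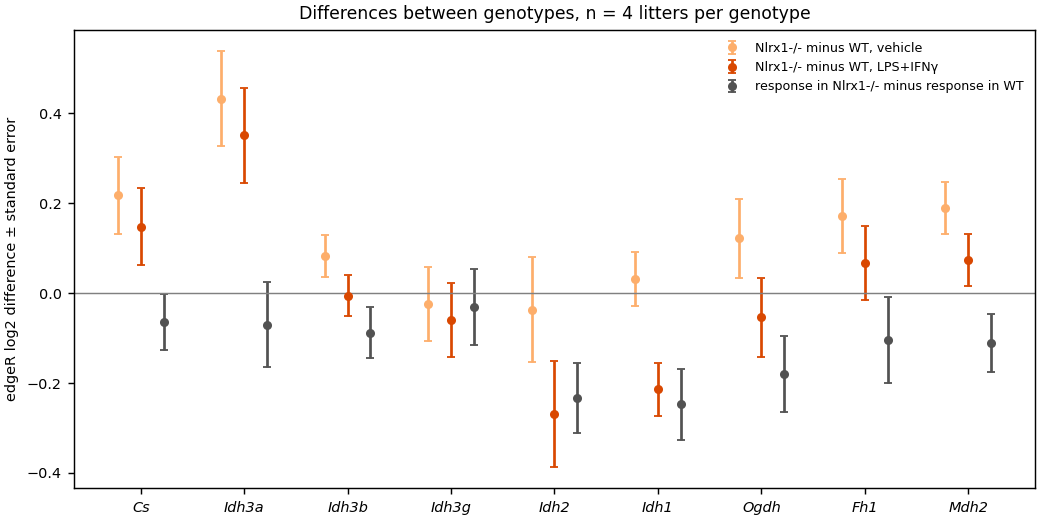
edgeR log2 differences (y axis, points) with standard errors (bars) for Nlrx1-/- minus WT in vehicle, Nlrx1-/- minus WT in LPS+IFNγ, and the response in Nlrx1-/- minus that in WT, for 9 genes and 4 litters per genotype. Idh3a is highest in both genotype comparisons, at 0.43 and 0.35, and all 9 interactions are below 0 in this fit. Of all genes tested, 47% have an interaction above 0.

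The other enzymes of the cycle, a list of 10 genes, gave similar counts. In WT, 8 of 10 were called higher and 1 lower, with a median log2 difference of 0.21, and in Nlrx1-/- 7 were higher and 2 lower, with a median of 0.20. The largest rises were in genes of succinate dehydrogenase, which feeds electrons from succinate to the respiratory chain: Sdhb rose by 0.89 in WT and 0.53 in Nlrx1-/-, and Sdhd by 0.67 and 0.38 (edgeR adjusted p at most 0.00274). Sdhc followed in WT, at 0.36. In Nlrx1-/- the largest change was that of Suclg2, a subunit of the GTP-forming succinyl-CoA synthetase, which fell by 0.58 there and by 0.32 in WT. With the 9 genes, which include the cytosolic Idh1, 14 of 19 were called higher in WT and 12 of 19 in Nlrx1-/-. Called lower were 2 and 4 of 19. Over all genes tested, 23.7% in WT and 25.3% in Nlrx1-/- were called higher, and 20.2% and 24.2% lower.

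Among 13 genes for the entry of pyruvate, 5 were called higher and 1 lower in WT, and 5 higher and 3 lower in Nlrx1-/-, with medians of 0.13 and 0.11. The shares of all genes tested were 23.7% higher and 20.2% lower in WT, and 25.3% and 24.2% in Nlrx1-/-. Pdp2, a phosphatase that activates pyruvate dehydrogenase, rose by 1.11 in WT, and Pdk3, a kinase that inhibits it, rose by 0.93 and 0.98 in the genotypes. Dlat, the acetyltransferase of the complex, rose by 0.47 in WT. In Nlrx1-/- the largest changes were Pdk3, the fall of pyruvate carboxylase (Pcx) by 0.93 and the rise of Pdp2 by 0.81 (edgeR adjusted p at most 0.000143). Pcx was at -0.29 in WT and not called (edgeR adjusted p = 0.0545). Counts of Pdk3 summed here were 56.1 to 63.1% of those behind the deposited table, so its level is understated.

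Of all genes tested, 23.7% in WT and 25.3% in Nlrx1-/- were called higher, and 20.2% and 24.2% lower. Among 14 genes of cytosolic partner enzymes and side branches, 7 were called higher and 2 lower in each genotype, with medians of 0.43 in WT and 0.24 in Nlrx1-/-. Aco1, named after its values were seen, is counted among those called higher at 0.59 and 0.32, but its summed counts were 21.3 to 33.4% of those behind the deposited table, where its mean litter response was 0.28 and 0.18 log2 CPM. Got1, cytosolic aspartate aminotransferase, rose by 1.31 in WT and 1.37 in Nlrx1-/-. Acly, which cleaves exported citrate to acetyl-CoA, rose by 1.13 and 0.90 (edgeR adjusted p at most 9.70e-06). Acod1, which makes itaconate from the cycle intermediate cis-aconitate, was at 0 reads in 7 of 8 vehicle libraries and at 1 read in the other, and at 65 to 236 reads after LPS+IFNγ. Against a floor of 3 reads per vehicle library, the 7 litters at 0 were at least 23.1-fold to 85.6-fold higher. Its level stayed low, at most 6.12 TPM. No gene of the 3 lists was called in the interaction or in vehicle. In LPS+IFNγ Got1 alone was called, higher in Nlrx1-/- by 0.63 (edgeR, standard error 0.15, adjusted p = 0.0413). Of all genes tested, 2.65% were called higher there. The Got1 call was lost without WT litter 2, 3 or 4, and with only the 8 libraries of that treatment, where 0 genes were called higher.

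**Figure D5:**
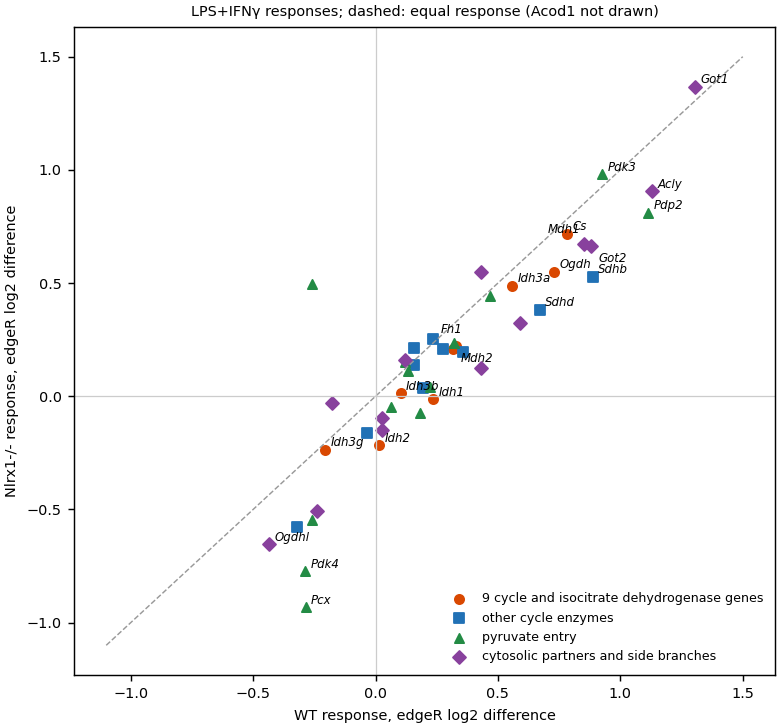
edgeR log2 difference after LPS+IFNγ in WT (x axis) and in Nlrx1-/- (y axis) for the 9 genes (circles) and 3 lists of related enzymes; points on the dashed line have equal responses, and Acod1 is not drawn. Got1 lies highest, at 1.31 and 1.37, and Pcx lowest in Nlrx1-/-, at -0.93.

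Outside the cycle, the gene most like each of the 9 was found by Pearson's r of log2 CPM over the 16 libraries, among 12600 genes with a mean of at least 1 log2 CPM. The libraries share litters, treatments and genotypes, so r describes these libraries. For Cs it was Fdps, farnesyl diphosphate synthase of sterol synthesis (r = 0.989), for Idh3a the cell adhesion gene Chl1 (0.987), for Ogdh the metalloprotease gene Adam15 (0.985) and for Mdh2 the methionine sulfoxide reductase gene Msra (0.977). The genes with small responses had weaker partners: Smarca2 for Idh1 (0.923), Ablim1 for Idh2 (0.922), Adprh for Idh3b (0.852), and Ctsa for Idh3g (0.929). Fh1 was nearest to the pseudogene Tmem250-ps (0.955).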

How the data were processed

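Poly-A RNA of 16 astrocyte cultures was sequenced without strand information. The authors quantified it with Salmon 1.7.0 against GRCm39 RefSeq transcripts. The deposited files hold, per transcript, an expected count with no normalization, a TPM and an effective length. The authors also deposited a gene table of CPM signal (length-scaled counts over TMM-adjusted library sizes, limma 3.58.1) and the log2 of that signal. Only the log2 values were used as levels, and the signal served to recover counts for an alternative.

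Each gene's expected count was the rounded sum over its transcripts, of which 106440 of 129698 could be paired with a symbol. These counts entered edgeR 4.0.16 in R 4.3.3: TMM with offsets for effective length, a minimum count of 10 in filterByExpr, the quasi-likelihood test, and Benjamini-Hochberg adjustment over 16066 genes at a threshold of 0.05. Responses and the interaction used litters as blocks within genotype, because the labels state that both wells of a litter come from the same mice. Each gene's group mean was subtracted before libraries were correlated. These deviations had a Pearson r across genes of 0.07 to 0.35 between the 2 wells of a litter. Between wells of different litters of a genotype it was -0.35 to 0.15. Deviations of a group sum to 0, so a higher r within litters goes with a lower r between them. Genotype comparisons came from a 4-group fit with no litter terms, since a litter has 1 genotype. Exact permutation tests, tables and plots used Python 3.11.15, pandas 2.3.3, numpy 2.4.6 and matplotlib 3.10.9. Alternatives used DESeq2 1.42.0 and limma 3.58.1. The scripts were tested on simulated data with 200 changed genes. Their median fitted log2 change was 0.98 in the interaction and 1.01 between genotypes in vehicle. Of these genes 59.5% and 61% were called, so a gene not called can still differ.

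The 9 genes and all lists were chosen with earlier results of these data known, so no list gives independent support. From the lists, the 3 called genes with the largest change per response, every gene called in another comparison and Acod1 are named. Of the labels, 0 libraries were left unassigned. The precision of a value follows from its reads and the spread between litters. The methods give the pups' age as P6 and the vehicle as water, and the age and vehicle are stated otherwise elsewhere in the study's text. Results for 1 listed gene and 1 searched motif are not reported here.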

Additional observations from a re-analysis of the deposited data

Results flagged for a closer look

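Of 54 groups of 4 values (levels of the 9 genes in 4 groups, and litter responses in 2 genotypes), 4 held a value standing apart from the other 3 by Dixon's test at 95%, where chance gives about 1 in 20. Idh1 was at 8.0 log2 CPM in Nlrx1-/- LPS+IFNγ replicate 3, above the other 3 libraries at 7.85 to 7.87. Idh3a was at 7.12 log2 CPM in Nlrx1-/- vehicle replicate 2, above 6.61 to 6.67. The Idh3b response in WT litter 3 was 0.12 against 0.11 in the others, which is close to them in size. The Idh3g response in Nlrx1-/- litter 4 was -0.41, against -0.13 to -0.17. For 0 of the 9 genes did all WT litters move one way and all Nlrx1-/- litters the other.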

How the results depend on the processing

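Of 963 recomputed values of the 9 genes, 877 kept direction and side of the threshold, 38 changed direction, 25 newly passed and 23 no longer passed. The cause of these changes was not tested. Cs, Idh3a and Ogdh in both responses and Idh3g in Nlrx1-/- were called under every alternative. The scaling by library size only was chosen after seeing the data.

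With the length trend removed, 3 genes were called higher in WT and 3 in Nlrx1-/-, where upper quartile scaling and library size only also gave 3. Genes called lower in WT were 0 at an adjusted p below 0.01 and 0 to 1 with a replicate left out (0 without WT replicate 1, 3 or 4). Genes called lower in Nlrx1-/- were 4 by library size only. Without the replicate block, 0 genes were called lower in WT and 1 in Nlrx1-/-. In vehicle, DESeq2 called 2 genes higher, and leaving out a replicate gave 0 to 2 (2 without Nlrx1-/- replicate 3, Cs and Idh3a). In LPS+IFNγ, DESeq2, limma with trend, recovered counts and the length and GC trends each called 1 gene higher, and leaving out a replicate gave 0 to 1 (1 without WT replicate 1 or Nlrx1-/- replicate 3). There DESeq2, limma-voom, limma with trend, upper quartile and library size only each called 1 gene lower, and leaving out a replicate gave 0 to 2 (1 without WT replicate 1, 2 without Nlrx1-/- replicate 3). Replicate numbers were not taken to pair the genotypes. After each gene's group mean was subtracted, r of same-numbered libraries was -0.09 to 0.18, and above 0.1 for number 3 alone. A shared day of culture cannot be told from these values. The paper reports same-day births for WT and Nlrx1-/- pups, but matches no litters across genotypes. Blocking on the number called 1 gene higher (Idh3a, 0.35, edgeR adjusted p = 0.0308) in LPS+IFNγ. It called 2 lower there, Idh1 at -0.21 and Idh2 at -0.28 (edgeR adjusted p = 0.0368 and 0.0338).

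Direction changed as follows. The Idh2 response in WT became -0.079 (upper quartile), -0.15 (library size only), -0.15 (length) and -0.074 (GC), and ranged from -0.011 to 0.068 with a replicate left out. Idh3b in WT became -0.059 (library size only) and -0.085 (length), and in Nlrx1-/- -0.090 (upper quartile), -0.15 (library size only, edgeR adjusted p = 0.00943), -0.11 (length, edgeR adjusted p = 0.0453) and -0.030 (GC). Idh1 in Nlrx1-/- became 0.0016 (limma with trend) and 0.0017 (recovered counts), and ranged from -0.079 to 0.021 with a replicate left out. The interaction of Idh3a ranged from -0.12 to 0.021, and that of Idh3g from -0.058 to 0.034, with a replicate left out. Idh3g was 0.048 (length) and 0.020 (GC) there. In vehicle, Idh2 became 0.0027 (length) and 0.015 (GC) and ranged from -0.14 to 0.043, and Idh3g became 0.0054 (length) and 0.032 (GC) and ranged from -0.062 to 0.039. In LPS+IFNγ, Idh3b became 0.0089 (limma with trend), 0.0082 (recovered counts), 0.0018 (RLE), 0.093 (length) and 0.10 (GC) and ranged from -0.029 to 0.020, Idh3g became 0.049 (length) and 0.046 (GC) and ranged from -0.12 to 0.0007, and Ogdh became 0.033 (GC) and ranged from -0.11 to 0.0074.

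Over all genes, calls higher and lower were 3813 and 3240 in WT and 4057 and 3886 in Nlrx1-/-, against 2433 and 5384, and 2657 and 5887, by library size only. Calls between genotypes in LPS+IFNγ were 426 higher and 382 lower, against 1138 and 1262 by DESeq2 and 1014 and 1192 with the block, and 0 and 0 from the 8 libraries of that treatment alone. Leaving out WT replicate 2, 3 or 4 or Nlrx1-/- replicate 2 or 4 left at most 7 higher and 6 lower, Nlrx1-/- replicate 1 gave 148 and 72, WT replicate 1 gave 630 and 767, and Nlrx1-/- replicate 3 gave 1499 and 1834.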
